A study of Mus musculus with 4 samples.

Results

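Genes of glutathione metabolism, the aldo-keto reductases, the Aldh1a retinaldehyde dehydrogenases and the NRF2 regulators were followed in 2 mouse tumor cell lines with and without interferon-γ (IFN-γ). The group was taken by gene symbol: every glutathione S-transferase of the alpha, mu, pi, theta, omega and zeta classes, every Akr1a to Akr1e gene, every Aldh1a gene, and 12 listed genes around NRF2 and glutathione (Nfe2l2, Keap1, Nqo1, Hmox1, Gclc, Gclm, Txnrd1, Srxn1, Gsr, Gpx1, Gpx2 and Gpx4). Of the 54 genes that fit this rule in the RefSeq table, 51 had a named probe, out of 20136 genes with a named probe on the array. Akr1c20, Gstm2-ps1 and Gstp-ps had none. The rule reads gene symbols and no measured value.

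Total RNA was labelled with a single dye and hybridised to 4 arrays of 1 slide, with 1 array per group. The groups were LLC cells treated with IFN-γ for 24 h, LLC cells with vehicle for 24 h, AB1-HA cells treated with IFN-γ for 24 h, and AB1-HA cells with vehicle for 24 h. LLC (also titled 3LL) is labelled a lung carcinoma line of strain C57BL6, and AB1-HA a mesothelioma line of strain BALB/c; AB1-HA derives from the AB1 line and carries influenza hemagglutinin as a model antigen. The dose of IFN-γ, the vehicle and the number of cultures behind each array are not given in the sources used here. Tumor type, mouse strain and any other feature of each line cannot be told apart, because each line is a single line. With 1 array per group there is no replicate check and no p-value; a difference of at least 2-fold between arrays was used as a rule of size.

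NRF2, the protein of Nfe2l2, is a transcription factor that KEAP1 holds for degradation until electrophiles or oxidants modify KEAP1. Freed NRF2 pairs with small MAF proteins on antioxidant response elements and raises enzymes that make glutathione, reduce oxidised thiols and conjugate or reduce reactive compounds. The glutathione S-transferases join glutathione to such compounds, the aldo-keto reductases reduce aldehydes and ketones (steroids and prostaglandins among their substrates), and the ALDH1A enzymes oxidise retinaldehyde to retinoic acid.

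A level below is a spot's processed signal as a percentage of the 75th percentile of all gene probes on its array, so that 100 is the 75th percentile. Levels compare arrays for a given probe and do not rank genes against each other. Between 57.5% and 58.2% of probes were well above background on each array, and no gene spot was saturated. The treatment labels were checked on Irf1, Gbp2, Psmb9, Tap1 and Cd274, known IFN-γ targets. All 5 were at least 2-fold higher with IFN-γ in both lines; Irf1, an interferon-induced transcription factor, was at levels of 8350 and 387 in LLC with IFN-γ and vehicle, and of 7167 and 329 in AB1-HA. The tissue labels had less behind them. Wt1, Upk3b, Calb2 and Lrrn4 of the mesothelial markers were not well above background on any array, while Msln was at 3.58 and 9.65 in LLC (IFN-γ, vehicle) and 2736 and 3644 in AB1-HA. Of the other mesothelial markers, Pdpn was at 0.674 and 0.406 (the second not well above background) in LLC and 667 and 651 in AB1-HA, but Bnc1 was at 79.7 and 125 in LLC and not well above background in AB1-HA. Of the lung epithelial markers, Epcam, Cdh1, Nkx2-1, Sftpc, Sftpb and Sftpa1 were not well above background on any array. The keratins Krt8 and Krt18, which stand on both lists, were higher in LLC, Krt18 at 6593 and 8393 against 6.05 and 17.3 in AB1-HA. Hopx was also higher in LLC, at 90.8 and 73.3 against 0.697 and 0.798, both not well above background. Aqp5 of the lung list went the other way, 9.29-fold lower in LLC with IFN-γ and 6.28-fold lower with vehicle. Krt19 of the mesothelial list was 3.73-fold lower in LLC with IFN-γ and 3.22-fold lower with vehicle. Scgb1a1 was 2.25-fold higher in LLC with IFN-γ and within 2-fold with vehicle, and Krt7 was within 2-fold under both conditions. Of the leukocyte markers, 4 of 9 were well above background on every array, Ptprc (CD45) on none; Csf1r was log2 1.74 higher with IFN-γ in LLC and −0.35 in AB1-HA. Their summed level was 296 and 237 in LLC (IFN-γ, vehicle) and 333 and 318 in AB1-HA. Of the endothelial markers, Kdr was at 182 and 92.0 in LLC and 199 and 202 in AB1-HA, and Pecam1 between 1.58 and 3.13. Cdh5, Tek and Emcn were not well above background on any array. The part of other cells in the results was not tested.

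Of the 51 genes, 36 were well above background on all 4 arrays, 6 on some and 9 on none. All 12 NRF2 and glutathione core genes were measured everywhere, against 16 of 21 glutathione S-transferases, 7 of 14 aldo-keto reductases and 1 of 4 Aldh1a genes. The genes not well above background on any array were Gsta3, Gstt4, Akr1c6, Akr1c19, Akr1c21, Akr1d1, Aldh1a2, Aldh1a3 and Aldh1a7.

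IFN-γ left most of the group within 2-fold of vehicle. In LLC, 1 of 39 genes with a value was at least 2-fold higher (Akr1c18) and 1 was at least 2-fold lower (Gstm7), against 3.58% and 1.36% of all 13404 genes with a value (4.94% in either direction). In AB1-HA, 4 of 41 were higher (Akr1c14, Aldh1a1, Gstt1 and Akr1b10) and 2 were lower (Gsta1 and Gsta2), against 2.99% and 1.17% of all 13213 genes (4.15% in either direction). The median log2 difference of the group was −0.07 in LLC and −0.00 in AB1-HA, beside −0.06 and −0.08 over all genes. No gene of the NRF2 and glutathione core passed 2-fold with IFN-γ in either line. Akr1c14 had no value in LLC, and whether the lines differ in the genes that passed was not tested.

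The lines themselves stood much further apart. On the vehicle arrays, 12 of 42 genes were at least 2-fold higher in LLC and 7 at least 2-fold lower, where 16.4% and 15.9% of all genes were (32.3% in either direction). On the IFN-γ arrays the counts were 10 higher and 7 lower of 42, where 15.4% and 13.1% of all genes were (28.5% in either direction). At 4-fold in either direction the group held 10 genes on the vehicle arrays and 8 on the IFN-γ arrays, against 14.1% and 13.2% of all genes. The median log2 difference of the group was 0.14 with vehicle and 0.26 with IFN-γ, beside −0.05 and 0.03 over all genes. With vehicle, 8 of 19 glutathione S-transferases were at least 2-fold higher in LLC and 1 was lower, while 0 of 10 aldo-keto reductases were higher and 5 were lower. Among these values, 2 of the transferases and 3 of the reductases were well above background in 1 line only, which fixed their direction. The comparisons share arrays, so a spot that is low on 1 array enters every comparison that uses it.

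**Figure D1:**
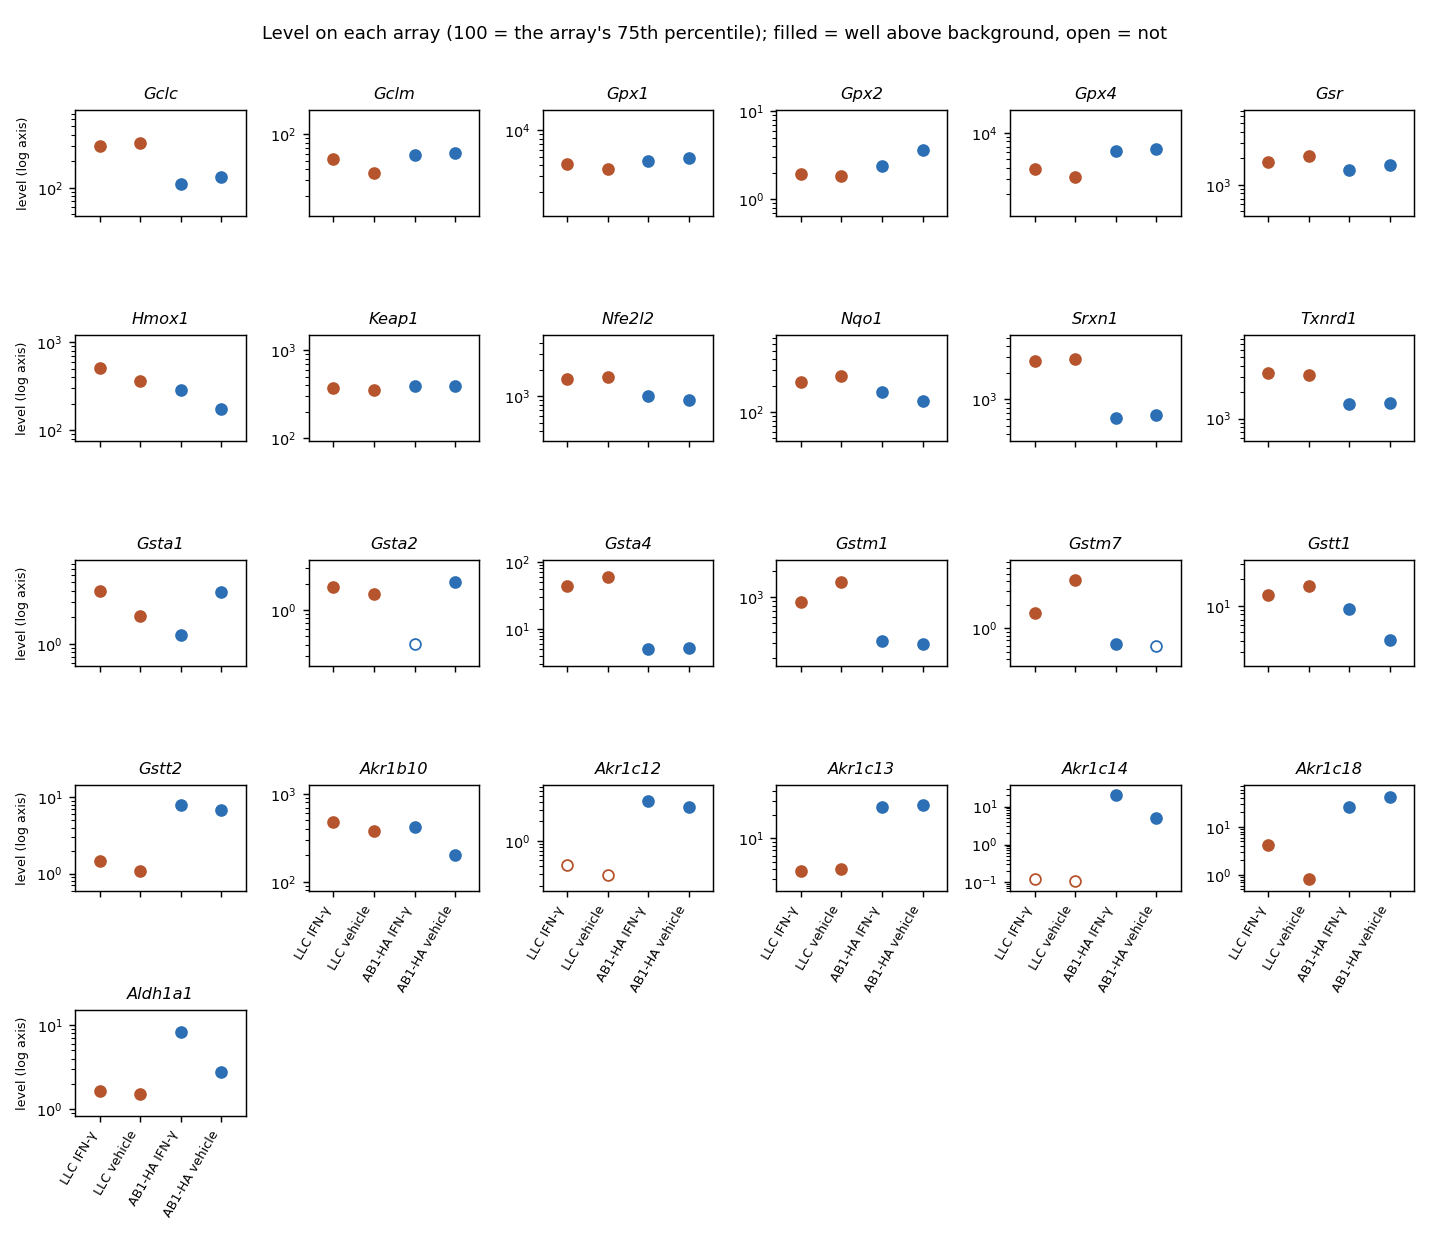
Level of each of 25 genes (vertical log axes, 100 = the 75th percentile of the array) on the 4 single arrays: LLC with IFN-γ, LLC with vehicle, AB1-HA with IFN-γ, AB1-HA with vehicle. Open circles were not well above background. Most of the core genes in the upper rows sit in pairs by line, such as Srxn1 at 2736 and 2887 in LLC against 621 and 668 in AB1-HA, while Akr1c14, Akr1c18, Aldh1a1 and Gsta1 differ between the treatments of a line.

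Nfe2l2, which encodes NRF2, was at levels of 1570 and 1669 in LLC (IFN-γ, vehicle) and 1002 and 909 in AB1-HA. Both LLC arrays were above both AB1-HA arrays, by log2 0.88 with vehicle and 0.65 with IFN-γ, short of 2-fold. IFN-γ moved it by −0.09 in LLC and 0.14 in AB1-HA, each within the scanner software's error of 0.20 for a log2 difference of 2 bright spots. That error covers the spot measurement and not the spread between cultures. Keap1, the substrate adaptor that targets NRF2 for degradation, was at 376 and 353 in LLC and 387 and 388 in AB1-HA, and all its log2 differences lay between −0.13 and 0.09.

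The genes that make and recycle glutathione split between the lines by subunit. Gclc, the catalytic subunit of glutamate-cysteine ligase, was at 299 and 325 in LLC (IFN-γ, vehicle), against 112 and 132 in AB1-HA. It was 2.46-fold higher in LLC with vehicle and 2.67-fold higher with IFN-γ. Gclm, the modifier subunit of the same enzyme, was at 52.0 and 36.1 in LLC and 58.8 and 61.5 in AB1-HA, with no array pair 2-fold apart. Its level in LLC with IFN-γ was 1.44-fold that with vehicle, and the lowest of the 4 arrays was LLC with vehicle. Gsr, which reduces oxidised glutathione, was at 1815 and 2121 in LLC and 1468 and 1691 in AB1-HA, slightly lower with IFN-γ in both lines at log2 −0.23 and −0.20.

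The glutathione peroxidases leaned to AB1-HA. Gpx4, which reduces lipid hydroperoxides and protects against ferroptosis, was at 3910 and 3152 in LLC (IFN-γ, vehicle) and 6174 and 6503 in AB1-HA. It was 2.06-fold lower in LLC with vehicle, a call that was lost under quantile (log2 −0.77) and cyclic loess normalization (−0.87), and 1.58-fold lower with IFN-γ. Gpx1, the abundant cytosolic peroxidase, was at 4159 and 3653 in LLC and 4517 and 4859 in AB1-HA. Gpx2, known from gut epithelium, was close to background, with 1.9 and 1.82 in LLC and 2.38 and 3.57 in AB1-HA. The single array that stood out was AB1-HA with vehicle, log2 −0.59 for IFN-γ against it with a scanner error of 0.22.

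Among the 12 listed genes around NRF2 and glutathione, Srxn1 separated the lines most. Srxn1 encodes sulfiredoxin, which restores over-oxidised peroxiredoxins, and was at 2736 and 2887 in LLC (IFN-γ, vehicle), against 621 and 668 in AB1-HA. LLC was 4.32-fold higher with vehicle and 4.41-fold higher with IFN-γ, and IFN-γ moved it by no more than log2 −0.11 in either line. Txnrd1, thioredoxin reductase of the cytosol, was at 3340 and 3155 in LLC and 1471 and 1503 in AB1-HA, 2.10-fold higher in LLC with vehicle and 2.27-fold with IFN-γ. Both genes stayed flat within each line and apart between the lines.

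Nqo1 and Hmox1 were less clear-cut. Nqo1, a quinone reductase often read as a marker of NRF2 activity, was at 219 and 259 in LLC (IFN-γ, vehicle) and 169 and 135 in AB1-HA. The line difference was log2 0.94 with vehicle and 0.38 with IFN-γ, as Nqo1 was lower with IFN-γ in LLC (−0.24) and higher in AB1-HA (0.33). Hmox1, heme oxygenase, was at 513 and 363 in LLC and 286 and 175 in AB1-HA. It was higher with IFN-γ in both lines, 1.41-fold in LLC and 1.64-fold in AB1-HA, and that in AB1-HA was the largest difference among the core genes there. A second Hmox1 probe gave log2 0.47 and 0.41. LLC was 2.08-fold higher than AB1-HA with vehicle, though log2 0.94, under 2-fold, as the mean of both probes.

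The DNA just upstream of the start of Srxn1, Gstp1 and Gstp2 is shown because these were the 3 members whose windows held the NF-E2 form of the antioxidant element; Srxn1 and the pi-class transferase Gstp1 were at least 2-fold higher in LLC with vehicle, and Gstp2 was 1.59-fold higher. The windows are the 250 bases before the annotated start in RefSeq's promoter table (GRCm38.p6), on the strand of the gene: chr2:152105274-152105523 (plus) for Srxn1, chr19:4037913-4038162 (minus) for Gstp1 and chr19:4042222-4042471 (minus) for Gstp2. Capitals mark the match to TGANTCAGC, read on both strands.
Srxn1: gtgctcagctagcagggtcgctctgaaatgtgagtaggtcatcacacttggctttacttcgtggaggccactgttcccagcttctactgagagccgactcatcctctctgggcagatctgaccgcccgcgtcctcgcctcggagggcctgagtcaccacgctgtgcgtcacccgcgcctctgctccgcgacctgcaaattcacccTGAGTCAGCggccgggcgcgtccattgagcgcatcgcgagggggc
Gstp1: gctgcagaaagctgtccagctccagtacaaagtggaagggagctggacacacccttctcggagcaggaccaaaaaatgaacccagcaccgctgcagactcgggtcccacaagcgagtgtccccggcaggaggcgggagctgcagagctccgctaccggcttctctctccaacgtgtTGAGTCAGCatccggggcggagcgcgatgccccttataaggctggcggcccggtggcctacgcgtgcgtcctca
Gstp2: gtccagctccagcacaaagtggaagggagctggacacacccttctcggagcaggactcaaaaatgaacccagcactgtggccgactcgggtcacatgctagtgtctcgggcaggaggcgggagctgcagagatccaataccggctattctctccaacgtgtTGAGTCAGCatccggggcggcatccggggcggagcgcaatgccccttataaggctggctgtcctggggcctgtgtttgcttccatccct
All 3 windows hold the same 9 letters, TGAGTCAGC, of which the search left only the N open. Gstp1 and Gstp2 are near-identical copies, so their matches do not count as independent. This motif was chosen with the windows in view, so its share of the group's windows (3 of 58, 5.17%) is not a test. It is found in 1.02% of all 32851 windows of this length. Windows were found for 44 of the 51 genes, 58 windows in all. The antioxidant element core TGACNNNGC, which overlaps the first motif only where the unset base of that is C, matched 7 of the 58 windows (12.1%, genes Aldh1a2, Gclm, Gsta3, Gstm5, Gstm7, Nfe2l2 and Txnrd1), against 10.2% of all windows. A match describes letters in the sequence and not binding.

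Among the glutathione S-transferases of the pi class, Gstp1 was at 2355 and 2860 in LLC (IFN-γ, vehicle) and 1191 and 1298 in AB1-HA, and Gstp2 at 9771 and 10734 in LLC and 6161 and 6731 in AB1-HA. These enzymes conjugate many electrophiles and are near-identical copies, so cross-hybridisation between their probes cannot be told apart from expression. Gstp3 was close to background on every array, between 0.717 and 1.12. In the omega class, Gsto1, a thioltransferase, was at 6651 and 6273 in LLC and 2118 and 2252 in AB1-HA, 2.79-fold higher in LLC with vehicle and 3.14-fold with IFN-γ.

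The alpha class held the largest difference in favour of LLC. Gsta4, which conjugates the lipid peroxidation product 4-hydroxynonenal, was at 43.9 and 59.0 in LLC (IFN-γ, vehicle) against 5.05 and 5.27 in AB1-HA. Its probe was spotted 10 times per array; over those spots, LLC minus AB1-HA was log2 3.49 ± 0.14 with vehicle and 3.12 ± 0.10 with IFN-γ (SD, n = 10 spots of 1 array pair, a technical spread), and with normexp background correction, which adds an offset to every signal, 2.39 and 2.04. With IFN-γ, Gsta4 was at log2 −0.43 ± 0.04 in LLC and −0.06 ± 0.17 in AB1-HA over the same spots.

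Gsta1 and Gsta2, close relatives with broad conjugating and peroxidase activity, were near background and moved differently. Gsta1 was at 3.96 and 2.07 in LLC (IFN-γ, vehicle) and 1.25 and 3.86 in AB1-HA. With IFN-γ it was 3.07-fold lower in AB1-HA (log2 −1.62, scanner error 0.36) and 1.92-fold higher in LLC (0.94, scanner error 0.27). Gsta2 was at 1.84 and 1.54 in LLC, and at 0.409 (not well above background) and 2.07 in AB1-HA, so at least 3.91-fold lower with IFN-γ in AB1-HA. Bounds of this kind set the brighter array against the higher of the dim spot's own signal and the lowest signal well above background on its array. Both calls in AB1-HA were lost with normexp background correction, at log2 −0.47 and −0.62. On the IFN-γ arrays LLC was 3.15-fold higher for Gsta1 and at least 3.47-fold higher for Gsta2, again under 2-fold with normexp at 0.82 and 0.63. To which copy of this near-identical pair the probes bind was not tested.

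The mu-class genes lay below vehicle together in LLC. Gstm1, a main conjugating enzyme of the class, was at 881 and 1494 in LLC (IFN-γ, vehicle) and 309 and 289 in AB1-HA. It was 1.70-fold lower with IFN-γ in LLC (log2 −0.76; −1.06 at its second probe), and 0.10 higher in AB1-HA. Gstm7 was at 1.57 and 4.14 in LLC, and at 0.639 and 0.591 (not well above background) in AB1-HA. It was 2.65-fold lower with IFN-γ in LLC, at log2 −1.40 and, at a second probe, −1.43, but only −0.17 with normexp background correction.

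Across the class, 6 of 7 genes had a log2 difference below 0 in LLC, with a median of −0.62 and a range of −1.40 to 0.27, and 12 of 13 probes were below 0. The exception was Gstm6, at 0.882 and 0.732 in LLC, whose used probe gave 0.27 (scanner error 0.69) and whose other measured probe gave −0.70. In AB1-HA all 6 genes with a value were above 0, by 0.03 to 0.31, as were 8 of 9 probes. Of the 6, Gstm7 was a bound, whose sign was fixed because only its IFN-γ array was well above background. Over all genes, 57.4% were below 0 in LLC and 63.6% in AB1-HA. Under the alternative scalings these signs held for Gstm1, Gstm2, Gstm3, Gstm4 and Gstm5 in both lines, and for Gstm7 in LLC. The 7 genes lie next to each other in the order Gstm5, Gstm7, Gstm6, Gstm3, Gstm2, Gstm1, Gstm4, and are similar enough in sequence that their probes are not independent measurements. Only Gstm7 passed 2-fold; Gstm4 came next at −0.90 in LLC, and −1.04 when arrays were scaled to their medians.

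**Figure D2:**
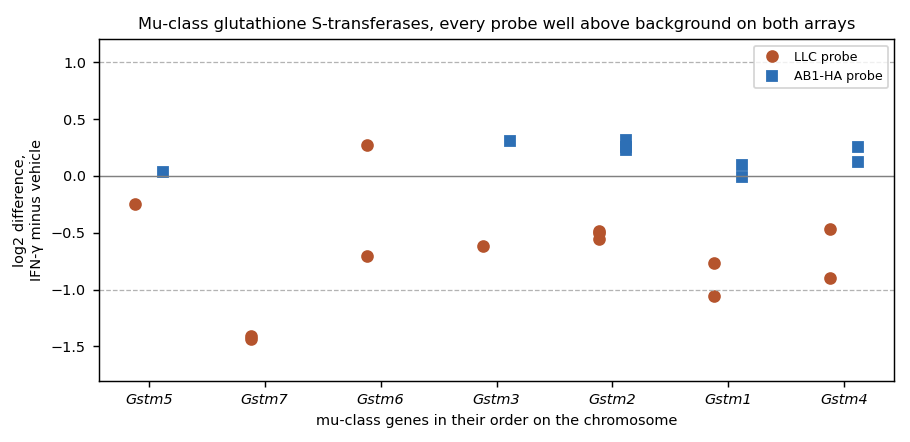
Log2 difference, IFN-γ minus vehicle (vertical axis), at every mu-class probe well above background on both arrays of a line, with genes in chromosomal order; each point is 1 probe on 1 pair of arrays and the dashed lines mark 2-fold. Of the LLC points (circles), 12 of 13 lie below 0, down to −1.43, while 8 of 9 AB1-HA points (squares) lie between 0 and 0.31.

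Between the lines, 4 of 7 mu-class genes were at least 2-fold higher in LLC with vehicle, where 16.4% of all genes were. Gstm1 was 5.18-fold higher in LLC with vehicle and 2.85-fold with IFN-γ, and Gstm7 was at least 6.92-fold and then 2.45-fold higher (0.65 and 0.71 on the log2 scale with normexp). Gstm4 and Gstm5 were 3.44-fold and 2.49-fold higher with vehicle, but a second probe of Gstm4 gave log2 0.34. Gstm2 did not follow, at −0.04 with vehicle and −0.79 with IFN-γ.

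The theta class was split. Gstt1 was at 13.3 and 16.7 in LLC (IFN-γ, vehicle) and 9.14 and 4.12 in AB1-HA, the lowest array being AB1-HA with vehicle. It was 2.22-fold higher with IFN-γ in AB1-HA (log2 1.15, or 0.38 with normexp) and 1.25-fold lower in LLC (−0.32). LLC was 4.05-fold higher with vehicle (log2 0.99 with normexp) and 1.46-fold with IFN-γ. Gstt2 ran the other way between the lines, at 1.46 and 1.06 in LLC and 7.97 and 6.88 in AB1-HA, 6.46-fold lower in LLC with vehicle and 5.45-fold lower with IFN-γ (log2 −0.77 and −0.43 with normexp). Gstt3 and the zeta-class Gstz1, an enzyme of tyrosine breakdown, stayed within 2-fold in every comparison.

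**Figure D3:**
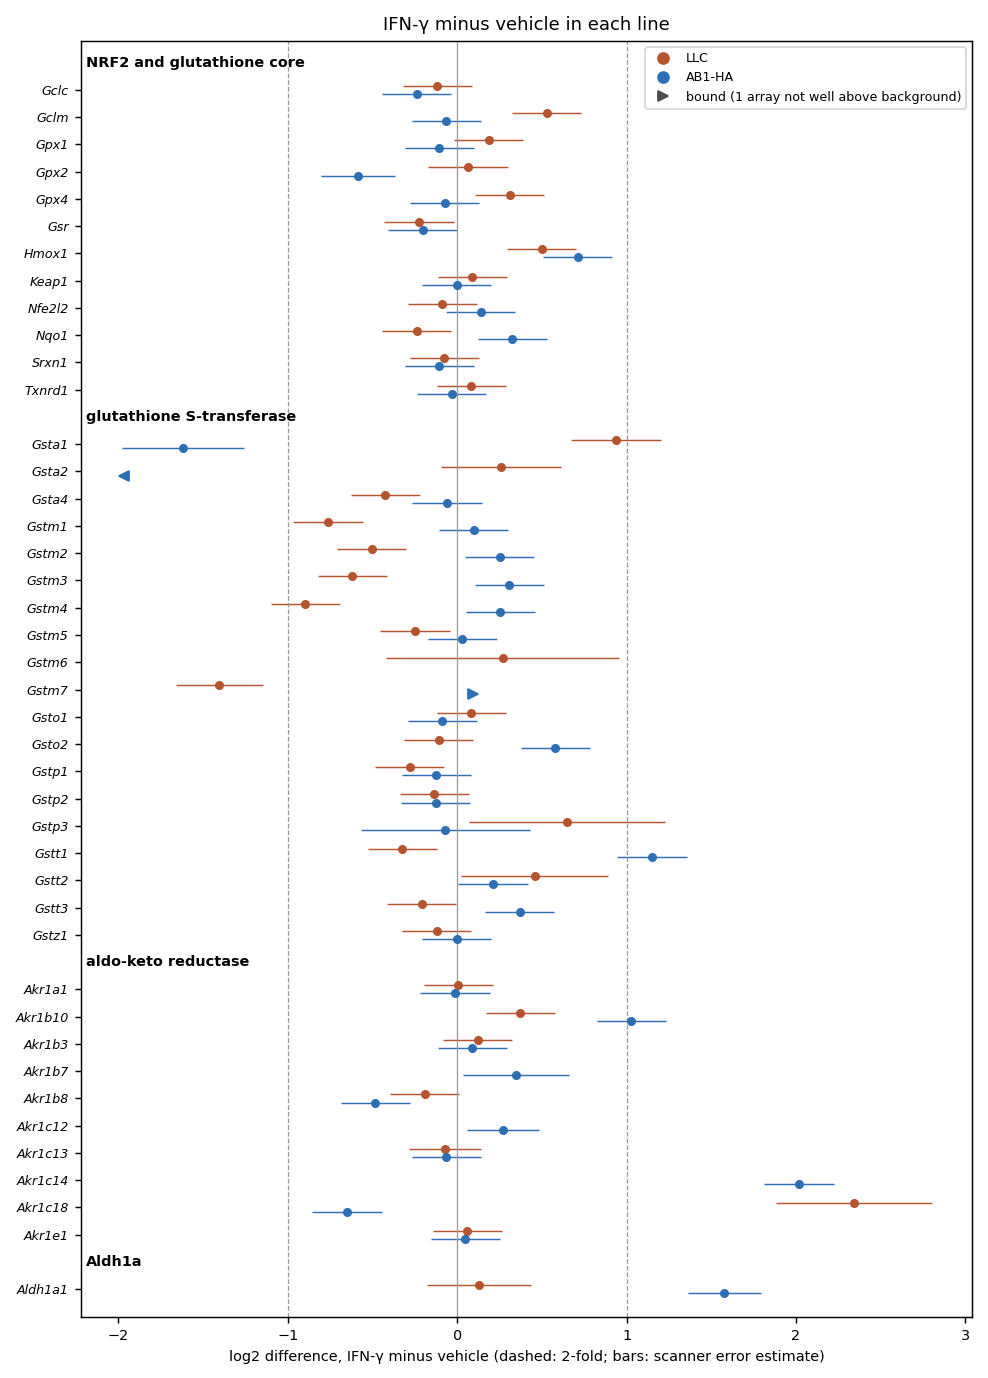
Log2 difference, IFN-γ minus vehicle (horizontal axis), of every gene of the group with a value, by family, for LLC and AB1-HA; bars are the scanner software's error estimate for the 2 spots, triangles are bounds and dashed lines mark 2-fold. The NRF2 and glutathione core lies inside the dashed lines in both lines, and the points outside are Gsta1, Gsta2, Gstt1, Akr1b10, Akr1c14 and Aldh1a1 in AB1-HA and Gstm7 and Akr1c18 in LLC.

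The Akr1c genes, steroid and prostaglandin reductases that lie in 1 cluster, lay lower in LLC. All 4 with a value were more than 4-fold lower there under both conditions. Akr1c12 and Akr1c14 were well above background only in AB1-HA, so a value for them could only be lower in LLC. Only Akr1c13 and Akr1c18 could have gone either way. With normexp background correction Akr1c13 and Akr1c14 were lower by more than 2-fold and less than 4-fold. Akr1c13 was at 3.82 and 4.02 in LLC (IFN-γ, vehicle) and 25.5 and 26.6 in AB1-HA, which is 6.62-fold lower in LLC with vehicle and 6.66-fold with IFN-γ (log2 −1.66 and −1.46 with normexp). Akr1c12 was at 0.424 and 0.296 in LLC, not well above background, and 4.10 and 3.4 in AB1-HA, at least 7.19-fold and 7.06-fold lower in LLC with vehicle and IFN-γ. With normexp background correction the Akr1c12 difference with vehicle was log2 −0.76. Neither gene differed by 2-fold with IFN-γ where it could be measured, and the likeness of the 2 genes makes their probes open to cross-hybridisation.

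Akr1c14 and Akr1c18, neighbours at one end of that cluster, were the ones IFN-γ set apart. Akr1c14, a 3α-hydroxysteroid dehydrogenase, was at 20.6 with IFN-γ and 5.09 with vehicle in AB1-HA, 4.05-fold higher with IFN-γ. In LLC it was at 0.124 and 0.106, not well above background on either array, so no IFN-γ difference can be given there; LLC was at least 35.5-fold lower with IFN-γ and at least 10.8-fold lower with vehicle (log2 −1.58 and −1.67 with normexp). The AB1-HA difference passed 2-fold under all 9 alternative settings, at log2 1.05 to 2.11.

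Akr1c18, the 20α-hydroxysteroid dehydrogenase that inactivates progesterone, was at 4.2 with IFN-γ and 0.829 with vehicle in LLC, 5.07-fold higher with IFN-γ. The vehicle value was close to the lowest level called well above background on that array, 0.472, and the log2 difference of 2.34 had a scanner error of 0.46; it was 0.92 with normexp. In AB1-HA it was at 26.3 with IFN-γ and 41.3 with vehicle, 1.57-fold lower (−0.65). Even with IFN-γ, LLC stayed 6.27-fold below AB1-HA, against 49.9-fold with vehicle. With normexp these differences were log2 −1.19 and −2.69.

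The upstream sequences of this pair are shown because the genes are neighbours that passed 2-fold with IFN-γ in different lines. They are the 250 bases before the annotated start from the same RefSeq table (GRCm38.p6), chr13:4059341-4059590 (plus) for Akr1c14 and chr13:4150647-4150896 (minus) for Akr1c18. Capitals mark a match to the interferon-stimulated response element core, searched on both strands as a GAAA followed after any 2 bases by another GAAA; the match shown is on the reverse strand.
Akr1c14: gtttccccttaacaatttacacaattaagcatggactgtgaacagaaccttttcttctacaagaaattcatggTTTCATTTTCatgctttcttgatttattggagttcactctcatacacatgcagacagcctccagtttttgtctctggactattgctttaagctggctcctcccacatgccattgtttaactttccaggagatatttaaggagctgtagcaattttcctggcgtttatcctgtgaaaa
Akr1c18: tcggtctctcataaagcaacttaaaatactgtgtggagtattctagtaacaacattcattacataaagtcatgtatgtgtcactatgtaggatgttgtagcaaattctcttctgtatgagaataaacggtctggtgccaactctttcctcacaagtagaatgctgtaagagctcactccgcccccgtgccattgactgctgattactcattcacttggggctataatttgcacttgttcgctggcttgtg
The Akr1c14 window holds 1 match and the Akr1c18 window none. Among the 58 windows of the group 2 matched (Akr1c14 and Gstt1, 3.45%), against 2.98% of all windows. The IFN-γ-activated sequence TTCNNNGAA, which reads the same on both strands, matched 5 windows of 4 genes (Akr1c19, Gsta1, Gstm6 and Txnrd1; 8.62%), against 7.02% of all windows.

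The Akr1b genes, relatives of aldose reductase, differed less. Akr1b10 was at 485 and 375 in LLC (IFN-γ, vehicle) and 416 and 204 in AB1-HA, the AB1-HA vehicle array being lowest. It was 2.04-fold higher with IFN-γ in AB1-HA (log2 1.03, and 1.22 at a second probe) and 1.29-fold higher in LLC. Akr1b8, which has 10 spots per array, was at 3110 and 3551 in LLC and 1624 and 2269 in AB1-HA. Over those spots IFN-γ minus vehicle was log2 −0.19 ± 0.03 in LLC and −0.48 ± 0.06 in AB1-HA (SD, n = 10 spots), under 2-fold in both lines; this spread covers the spots of an array and not cultures. Akr1b7 was at 0.416 and 0.397 in LLC, not well above background, and 2.06 and 1.62 in AB1-HA, at least 3.42-fold lower in LLC with vehicle and 3.54-fold with IFN-γ, but log2 −0.75 and −0.15 under the alternative with the smallest difference. Akr1b3 (aldose reductase), Akr1a1 (aldehyde reductase) and Akr1e1 were bright everywhere and within 2-fold in every comparison.

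Of the Aldh1a genes only Aldh1a1 was measured. It oxidises retinaldehyde and is widely used as a marker of progenitor-like tumor cells. Its level was 1.64 and 1.5 in LLC (IFN-γ, vehicle) and 8.38 and 2.81 in AB1-HA, so that a single array, AB1-HA with IFN-γ, stood above the other three. IFN-γ was 2.98-fold above vehicle in AB1-HA (log2 1.58, scanner error 0.21) and 1.09-fold in LLC (0.13). With normexp the AB1-HA difference was 0.42. The lines were 1.87-fold apart with vehicle and 5.11-fold apart with IFN-γ (log2 −0.87 with normexp), LLC being lower.

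**Figure D4:**
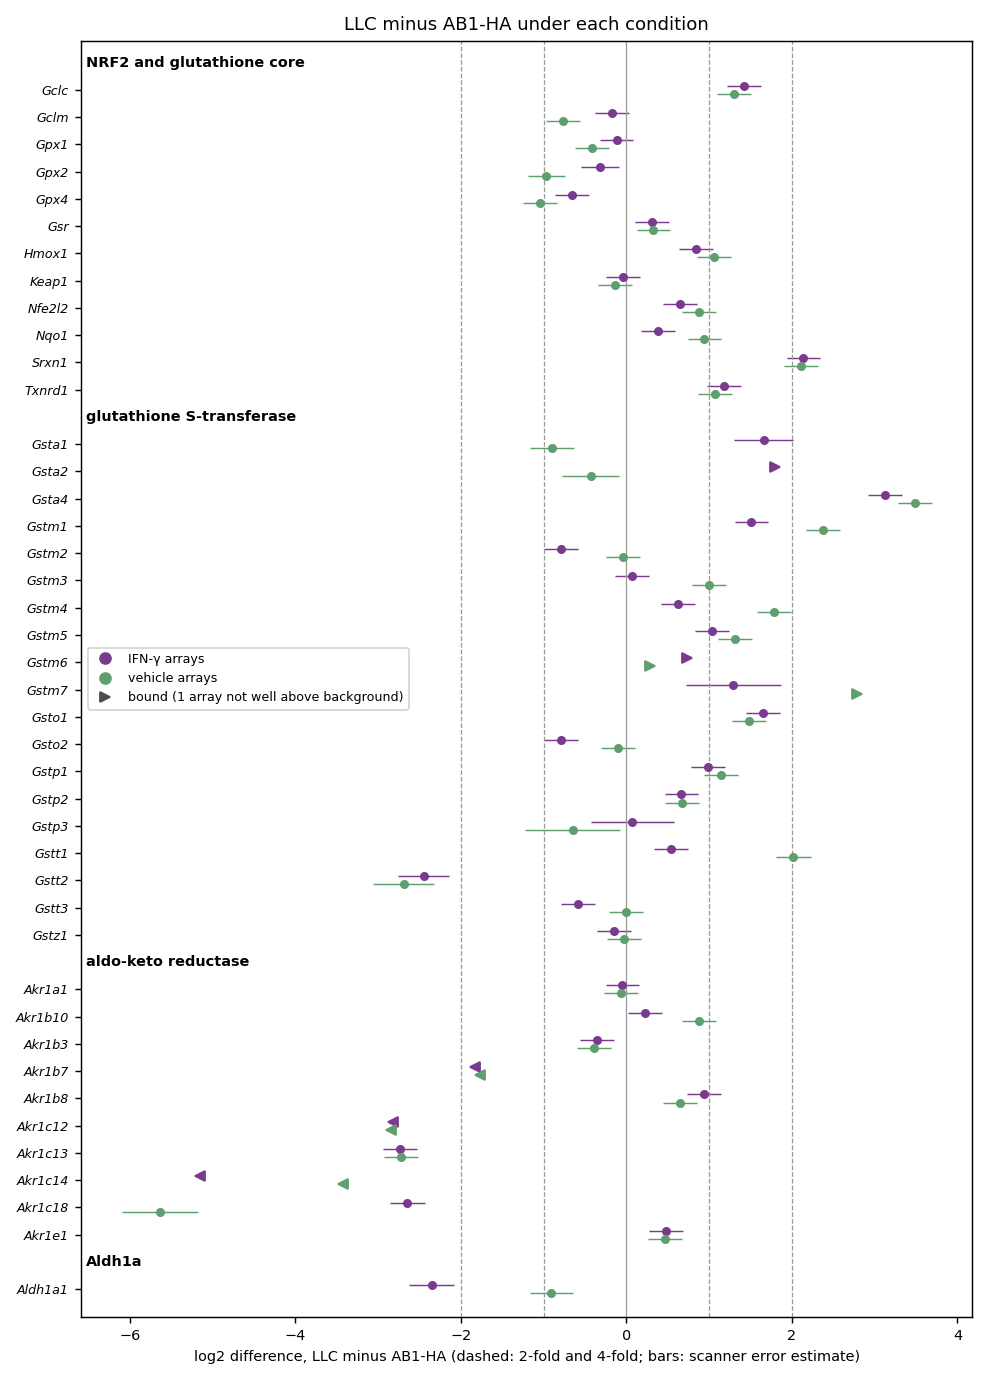
Log2 difference, LLC minus AB1-HA (horizontal axis), of every gene of the group with a value, on the IFN-γ arrays and the vehicle arrays; bars are the scanner software's error estimate, triangles are bounds and dashed lines mark 2-fold and 4-fold. Gsta4 lies furthest right at 3.48 with vehicle, the Akr1c genes lie beyond −2 on the left under both conditions, and Gsta1 changes side between the conditions.

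The difference between the IFN-γ differences of the lines could be taken for the 36 genes measured on all 4 arrays. LLC exceeded AB1-HA by at least 2-fold for 2 (Akr1c18 and Gsta1) and lay at least 2-fold below it for 3 (Aldh1a1, Gstt1 and Gstm4), where 2.54% and 1.69% of all genes did (4.23% in either direction). With normexp, Gsta1 (log2 0.87), Aldh1a1 (−0.42) and Gstt1 (−0.78) fell short of 2-fold, and Gstm4 did as the mean of its probes (−0.87). The split of all genes turned with the scaling, with 305 higher and 203 lower here, against 212 and 319 with array median scaling, 232 and 262 with quantile and 182 and 323 with cyclic loess normalization. The group's median was −0.01, beside 0.03 over all 11999 genes. Such a double difference combines the error of 4 spots, 0.29 on the log2 scale at best.

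The rest of the pathway was read from 6 further lists. Over all genes, 3.58% were at least 2-fold higher with IFN-γ in LLC and 1.36% lower, and 2.99% and 1.17% in AB1-HA. The IFN-γ counts of each list stand beside those shares. Of 14 partners and regulators of NRF2 (small MAFs, BACH repressors, ligase subunits and others), 0 of 13 with a value in LLC and 0 of 12 in AB1-HA passed 2-fold with IFN-γ. Between the lines only Bach1 did, a repressor that competes with NRF2 at its sites, at 163 and 167 in LLC (IFN-γ, vehicle) against 64.0 and 57.0 in AB1-HA. Among 26 other NRF2 targets, 1 was at least 2-fold higher with IFN-γ in each line and none lower. That gene was Mgst1, a microsomal glutathione transferase, at 131 and 43.9 in LLC (IFN-γ, vehicle) and 472 and 147 in AB1-HA, 2.98-fold and 3.22-fold higher with IFN-γ.

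Between the lines these NRF2 targets went both ways, 10 of 26 higher in LLC and 5 lower with vehicle, where 16.4% and 15.9% of all genes were, and 7 and 5 with IFN-γ, where 15.4% and 13.1% were. Cbr1 (carbonyl reductase), Abcc1 (the exporter of glutathione conjugates) and Osgin1 (a stress-induced growth inhibitor) were 11-fold, 8.96-fold and 8.82-fold higher in LLC with vehicle. The aldehyde dehydrogenase Aldh3a1 was 176-fold lower, at 0.654 in LLC against 115 in AB1-HA. Mgst1 and the epoxide hydrolase Ephx1 were 3.34-fold and 3.24-fold lower.

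Among 28 other glutathione genes, 2 of 21 with a value were higher with IFN-γ in LLC and 1 lower, and 1 of 18 was higher in AB1-HA. Besides Mgst1, these were Ggct, a γ-glutamyl cyclotransferase of glutathione breakdown, at 245 and 103 in LLC (log2 1.26), and Ggt1, which cleaves glutathione outside the cell, at 0.873 and 3.38 in LLC (−1.95). The Ggt1 value with IFN-γ was close to the lowest level called well above background on that array, 0.580. With vehicle, 5 of 22 were higher in LLC and 5 lower, where 16.4% and 15.9% of all genes were. Oplah, which opens the 5-oxoproline left by glutathione breakdown, was 120-fold higher, at 619 against 5.16, and Anpep and Ggt7 were at least 135-fold and 46.7-fold higher, both not well above background in AB1-HA. Gpx7, Mgst2 and Mgst1 were lower in LLC, Gpx7 by at least 16.5-fold and Mgst2 by 4.28-fold. Of the 5 higher genes, Ggt1, Ggt7, Gstk1 and Anpep were not well above background in AB1-HA, so they could only be higher in LLC. Gpx7 was not well above background in LLC, so it could only be lower.

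No gene of the 17 on the thioredoxin, peroxiredoxin and superoxide dismutase list passed 2-fold with IFN-γ in either line. Between the lines 3 of 17 were higher in LLC and 3 lower under each condition. Over all genes, 16.4% were higher and 15.9% lower with vehicle, and 15.4% and 13.1% with IFN-γ. With vehicle, Prdx6, Txnrd2 and Cat were 2.42-fold, 2.31-fold and 2.10-fold higher, and Prdx5, Prdx2 and Txnip 3.00-fold, 2.95-fold and 2.57-fold lower. On the IFN-γ arrays Sod3 (2.01-fold) stood in place of Cat (1.39-fold).

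Of 22 other aldehyde and carbonyl enzymes, 1 of 21 was lower with IFN-γ in LLC, the lung carbonyl reductase Cbr2 at 1.32 and 3.98 (log2 −1.59), and 1 of 20 was higher in AB1-HA, the folate enzyme Aldh1l1 at 66.2 and 26.6 (1.31). Cbr2 was near background in LLC. With vehicle, 5 of 21 were higher in LLC and 4 lower, where 16.4% and 15.9% of all genes were. They were led by Cbr1, Aldh5a1 (5.81-fold) and Aldh3b1 (5.14-fold) on one side and Aldh3a1, Cbr2 (3.93-fold) and Cbr3 (2.95-fold) on the other. On the IFN-γ arrays 3 were higher and 5 lower, where 15.4% and 13.1% of all genes were. Among the lower ones were Aldh1l1 (3.38-fold) and Cbr3 (2.35-fold).

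The 16 retinoid genes are the pathway that Aldh1a1 feeds. With IFN-γ in LLC, Rdh10, which makes retinaldehyde from retinol, was at 33.1 and 76.1 (log2 −1.20), and Dhrs3, which reduces it back, at 41.1 and 82.4 (−1.0); these were the 2 of 13 that were lower, with none higher. In AB1-HA, Crabp1, a cellular retinoic acid binding protein, was at 0.599 with IFN-γ and 1.43 with vehicle (−1.25), and Dhrs9, which oxidises retinol, was at 1.35 and 0.646, the second not well above background, and so at least 2.09-fold higher. The Crabp1 value with IFN-γ was close to the lowest level called well above background on that array, 0.531. Between the lines the differences were large: with vehicle, Crabp1 was 187-fold, Dhrs9 at least 72.1-fold and Rbp4 at least log2 11.61 higher in LLC. Rarb, a retinoic acid receptor, was 261-fold lower in LLC, Crabp2 72.9-fold and the retinol transporter Stra6 at least 12.2-fold. The Crabp2 spot of LLC with IFN-γ carried an outlier mark and was left out, so that Crabp2 has no IFN-γ value in LLC.

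**Figure D5:**
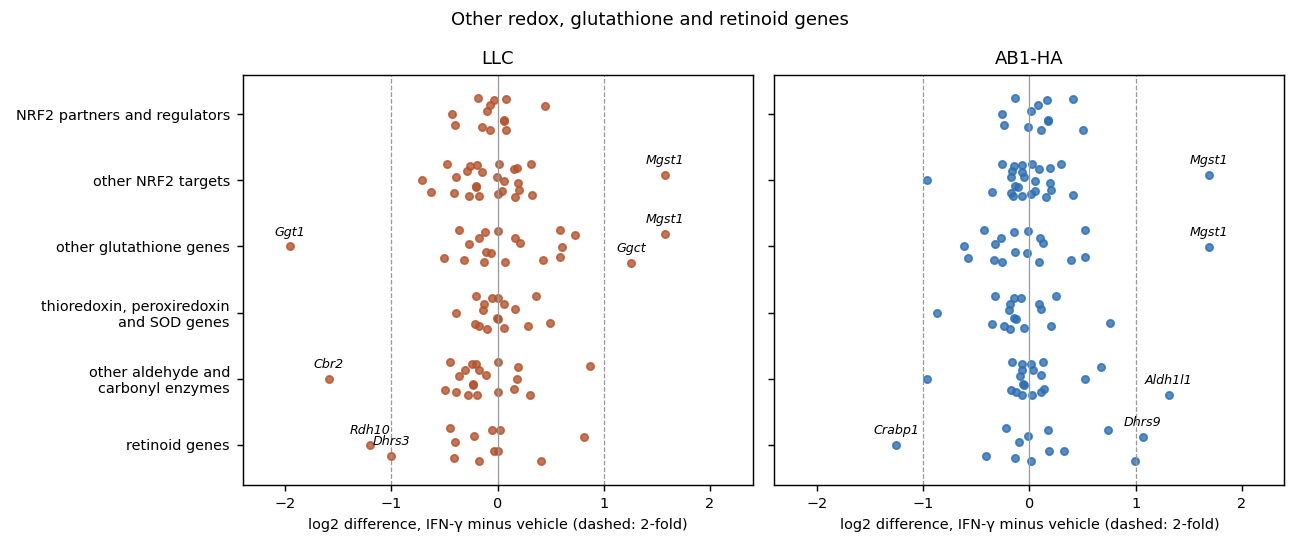
Log2 difference, IFN-γ minus vehicle (horizontal axes), of the genes on 6 further lists, 1 point per gene and a panel per line, LLC on the left; genes at least 2-fold apart are named, Dhrs9 as a bound, and dashed lines mark 2-fold. Mgst1, which stands on 2 lists, is the gene named in both panels, at 1.58 in LLC and 1.69 in AB1-HA.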

How the data were processed

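The deposited intensity is scanner output of single-colour arrays, from Feature Extraction 10.7.1.1 per the file headers, with background removed per spot and no step that equalises arrays. The authors also deposited a table of log2 values; set against the scanner files, its 4 columns (medians 0.08 and −0.13 for LLC with IFN-γ and vehicle, −0.08 and 0.11 for AB1-HA) correlated at 1.00 with signals scaled to the 75th percentile and centred per probe, and ran in the direction of the signal. No source used here says how that table was produced.

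Spots with outlier marks (166 to 201 per array) and control spots were left out. Signals were divided by the array's 75th percentile over gene probes (intensity 1380 to 1598), and spots of a probe were averaged. Probes were named by RefSeq accession (26575 of 39429 probes) from a table of GRCm38.p6, used for names and gene order; the array annotation is mm9. Of a gene's probes, the one with the highest mean was used, and 13 members had several. A gene dim on 1 array of a pair has a bound, and one dim on both has no value. Differences were called at 2-fold, without a test, since each group is 1 array. The precision is limited by that number of arrays. The calling step was run on simulated arrays with noise of the size seen between spots. That simulation held no spread between cultures and no bounds, so it does not measure how reliable the calls are here. Python 3.11.15, pandas 2.3.3, R 4.3.3 and limma 3.58.1 were used.

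Values per array were given for the 12 listed genes, members at least 2-fold apart with IFN-γ in either line and members at least 4-fold apart between the lines; of the further lists, genes at least 2-fold apart with IFN-γ and the 3 largest line differences per direction. Members, lists and the rule were chosen with earlier results of these data known. The 9 alternatives were median scaling of arrays, cyclic loess or quantile normalization, normexp (offset 50), the authors' value table, 2 other background filters, the mean over probes, and keeping outlier spots. Normexp was run on the median spot and background signals in place of the processed signal.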

Additional observations from a re-analysis of the deposited data

Results flagged for a closer look

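Of the 36 genes measured on all 4 arrays, 4 were flagged. Their IFN-γ differences had opposite directions in the 2 lines and the double difference, LLC minus AB1-HA, was at least 2-fold. Over all 11999 genes, 4.23% had a double difference of that size whatever the directions. The share of all genes with opposite directions was not counted. With 1 array per group these differences were not tested. Akr1c18 was log2 2.34 in LLC and −0.65 in AB1-HA, a double difference of 2.99, and 1.5 with normexp. Gsta1 was 0.94 in LLC and −1.62 in AB1-HA, a double difference of 2.56, and 0.87 with normexp, under 2-fold. Gstt1 was −0.32 in LLC and 1.15 in AB1-HA, a double difference of −1.47, and −0.78 with normexp, under 2-fold. Gstm4 was −0.90 in LLC and 0.25 in AB1-HA, a double difference of −1.15, and −0.87 as the mean over its probes, under 2-fold; its second probe gave −0.47 in LLC and 0.12 in AB1-HA.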

How the results depend on the processing

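No paired analysis was possible because each group is 1 array, and the 4 arrays are on 1 slide, so no block by slide can be fitted. Of the counts and medians over the group, 119 values under the 9 alternatives stayed within 1.5 times the count or the 1.5-fold tolerance of a median, and 16 moved. The medians lay near 0 and some changed sign within that tolerance. Values in parentheses below are those of the main processing, and alternatives not named could differ from them too. The LLC median with IFN-γ was 0.06 without any filter (−0.07). The AB1-HA median was 0.03 with quantile and 0.08 with cyclic loess normalization, and −0.03 with normexp (−0.00). It lay within 0.01 above 0 with outlier-marked spots kept or the authors' values. The line median with vehicle was −0.01 with normexp and −0.00 without any filter (0.14). That of the double difference was 0.02 without any filter and 0.00 over a gene's probes (−0.01). Normexp changed most. It started from the median spot and background signals and not from the processed signal, and added an offset to every signal. An offset shrinks the differences of dim spots, but its part was not tested apart from the change of input. With normexp the genes higher and lower with IFN-γ were 0 and 0 in LLC (1 and 1) and 2 and 0 in AB1-HA (4 and 2). Between the lines it left 4 lower in LLC with vehicle (7), and 6 higher and 3 lower with IFN-γ (10 and 7). For the double difference it left 1 higher and 1 lower (2 and 3). Requiring every array compared to be well above background, which drops the bounds, left 1 lower in AB1-HA with IFN-γ and 4 lower in LLC under each condition. Without any filter 2 were lower with IFN-γ in LLC, and the double difference had 4 higher and 6 lower. Scaling to the array median gave 2 lower with IFN-γ in LLC. It moved the median of all genes there to −0.20 (−0.06), and the split of all called genes to 391 higher and 308 lower (480 and 182). Of single named genes, 21 values fell under 2-fold in the same direction, 3 passed it and 1 moved. The 3 were Nfe2l2, LLC minus AB1-HA with vehicle, at 1.04 with quantile and 1.01 with cyclic loess normalization, and Nqo1 at 1.03 with cyclic loess. Signals near background limit Gsta1, Gsta2, Gstm7, Akr1c18, Gpx2 and Aldh1a1. Of the further lists, they limit Ggt1, Cbr2, Crabp1, Dhrs9, Aldh3a1 and Rarb. Single genes of those lists were not read under the alternatives.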
